A study of Mus musculus with 10 samples.

Results

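The enzymes and proteins that protect cells from reactive oxygen species and free metal ions were examined in mouse samples described as osteoblasts, the bone-forming cells. The set holds 36 genes, chosen by name: superoxide dismutases, catalase, glutathione peroxidases, peroxiredoxins, the thioredoxin and glutathione systems, sestrins, Mt1 and Mt2, and the regulators Nfe2l2 and Keap1. The array's annotation gave 73 probe sets to 33 of them alone, out of 45101 probe sets in all. Prdx1 was listed only on probe sets shared with another gene, and Prdx5 and Prdx6 were not listed in the annotation used here, so these were not analysed. Of the 73 probe sets 61 passed the filter on low values, which left 32 genes to test among 11357. Sod3, the extracellular superoxide dismutase, did not pass, with both of its probe sets under the table's median of 7.15 in all 10 arrays.

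RNA came from osteoblasts of mice aged 2 to 3 days on a background the labels spell C5BL6, with sex recorded as undetermined. The 10 arrays were 4 from wild-type mice, 3 from mice in which osteoblasts expressed β-catenin constitutively (β-catenin active) and 3 from mice with FoxO1 deleted in osteoblasts. The promoter or Cre driver, the altered part of either gene, and whether a sample was 1 animal, a pool or a culture are not given in the sources used here. The p-values thus rest on how far these samples vary, and that variation may be technical.

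Superoxide dismutases turn superoxide into hydrogen peroxide, and catalase, glutathione peroxidases and peroxiredoxins remove the peroxide. Glutathione and thioredoxin supply the electrons for the glutathione peroxidases and peroxiredoxins. Nrf2, encoded by Nfe2l2 and held back by Keap1, switches on many of the genes of this set. Metallothioneins are small cysteine-rich proteins that bind zinc and copper and are induced by metals and glucocorticoids. FoxO transcription factors are known activators of Sod2, Cat and sestrins and can bind β-catenin, which gives the comparison of these genotypes its interest for this set.

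All signals below are log2 MAS5 values, so a step of 1 is a 2-fold step, and each probe set is compared only with itself. Where 2 differences are given together, active β-catenin comes first and FoxO1 deleted second, each minus wild type. Array medians lay between 7.02 and 7.22. Wild type 1 and 2 correlated at 0.990 over the tested genes and wild type 3 and 4 at 0.989, against 0.971 to 0.973 across these pairs, so the 4 wild-type arrays may hold fewer independent units. Xist was high in wild type 3 and 4 and in FoxO1 deleted 2 and 3 (14.05 to 14.43), and at 8.96 or less in the other 6 arrays. Of the targeted genes, Ctnnb1 differed by -0.03 with active β-catenin (limma adjusted p = 0.941) and Foxo1 by -0.17 with FoxO1 deleted (limma adjusted p = 0.706). Neither value checks the labels if the probes lie beyond the altered sequence. Of 9 osteoblast markers, 6 were tested and had a mean signal of 13.76 to 14.09 over all arrays, while Bglap, Runx2 and Spp1 were not analysed here. All 6 macrophage, 5 osteoclast, 5 skeletal muscle and 6 chondrocyte markers of the lists passed the filter on low values too. Their mean signals over all arrays were 10.94 to 11.59, 11.16 to 12.41, 11.33 to 12.96 and 9.96 to 12.05 in that order. The defence gene values are thus those of mixed samples and cannot be assigned to osteoblasts alone. Summed chondrocyte signal was 11144 to 16918 in wild type and at least 18149 in every mutant array.

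Most of the defence genes differed little between genotypes. With active β-catenin, 25 of the 32 genes lay within 0.25 of wild type on the log2 scale, and with FoxO1 deleted 27 did. The differences of all genes had quartiles of -0.12 and 0.13 with active β-catenin and -0.11 and 0.115 with FoxO1 deleted. Such small differences were thus not particular to this set. None of the 32 passed limma's test with Benjamini-Hochberg adjustment over all genes against wild type in either genotype, where 0.784% of all genes passed with active β-catenin (0.599% higher, 0.185% lower) and 0.0264% with FoxO1 deleted (0.00881% higher, 0.0176% lower). At an unadjusted p under 0.05 there were 8 and 4 of the 32, against 12.1% and 7.83% of all genes. Between the genotypes 1 gene passed, Mt1, lower with active β-catenin, where 0.669% of all genes did (0.581% higher, 0.0881% lower), and 6 had an unadjusted p under 0.05 against 8.03%. Tested probe set by probe set, a Sesn1 probe set rose and a Gpx4 probe set fell with active β-catenin, so the choice of probe set decides those calls.

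The differences leaned downward against wild type. With active β-catenin 22 of 32 were negative, with a median of -0.12, where the median of all genes was 0.01. With FoxO1 deleted 21 were negative, with a median of -0.07, where the median of all genes was 0. Both comparisons use the same wild-type arrays. With active β-catenin 4 of 32 genes (12.5%) did not overlap with wild type between arrays, all of them lower, near the 14.0% of all genes (7.27% higher, 6.76% lower). With FoxO1 deleted 6 (18.8%) did not, 2 higher and 4 lower, against 9.03% (4.59% higher, 4.44% lower). Between the genotypes 8 of 32 (25%) did not overlap, 2 higher and 6 lower with active β-catenin, against 9.54% of all genes (5.39% higher, 4.16% lower).

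**Figure D1:**
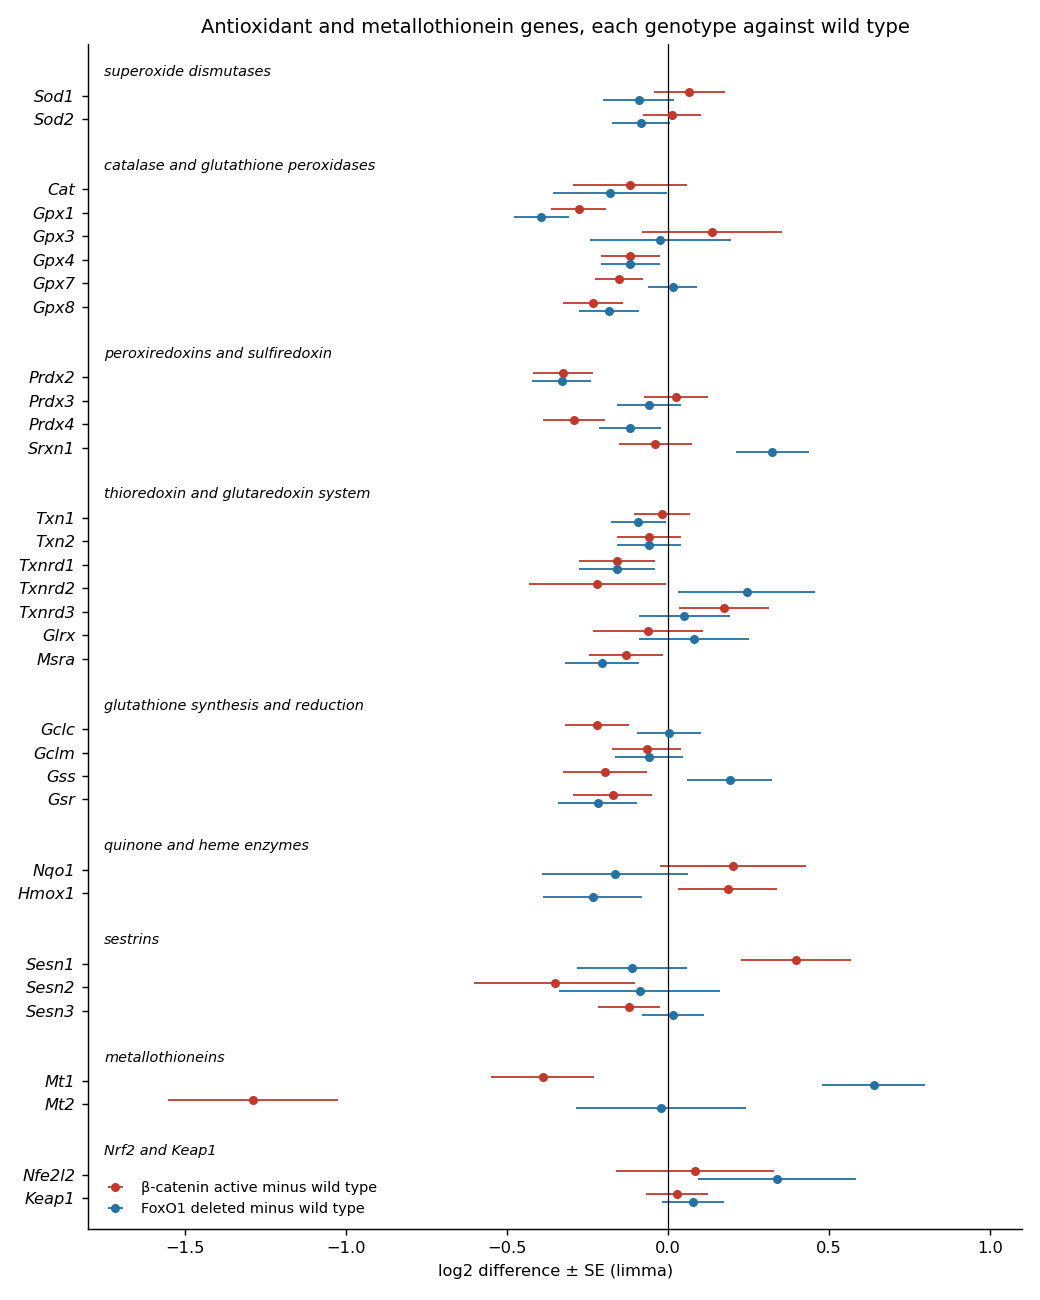
Log2 difference from wild type for the 32 tested genes, grouped by role, for active β-catenin (red) and deleted FoxO1 (blue); points are limma estimates and bars their SE (n = 4 wild type, 3 and 3). Most points lie within 0.25 of 0, and Mt2 with active β-catenin stands farthest out at -1.29.

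The metallothioneins differed most between the mutant genotypes. Mt1 and Mt2 lie next to each other in the genome, and transcription of both is known to run through metal response elements. Their RefSeq promoter windows (GRCm38.p6, 250 bases before to 50 after the listed start) are shown because these genes had the largest differences between the mutant genotypes, with matches to the metal response element core in capitals (TGCACNC or TGCGCNC, both strands).
Mt1 (chr8:94178839-94179138, + strand): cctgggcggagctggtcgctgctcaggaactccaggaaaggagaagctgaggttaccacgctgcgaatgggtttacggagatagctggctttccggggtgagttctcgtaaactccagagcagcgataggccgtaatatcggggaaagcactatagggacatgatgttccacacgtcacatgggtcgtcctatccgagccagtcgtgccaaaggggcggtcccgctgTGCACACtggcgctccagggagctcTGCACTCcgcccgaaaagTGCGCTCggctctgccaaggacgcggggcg
Mt2 (chr8:94172368-94172667, + strand): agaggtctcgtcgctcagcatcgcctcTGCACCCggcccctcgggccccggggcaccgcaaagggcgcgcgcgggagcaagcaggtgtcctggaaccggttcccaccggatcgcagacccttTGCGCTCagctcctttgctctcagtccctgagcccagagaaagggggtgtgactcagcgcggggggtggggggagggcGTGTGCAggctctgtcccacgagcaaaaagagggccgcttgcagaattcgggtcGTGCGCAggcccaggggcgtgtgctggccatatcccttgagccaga
The Mt1 window held 3 matches and the Mt2 window 4. At least 1 match was found in 25.7% of 32851 promoter windows of this length, and 3 or more in 1.97%.

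The brighter of 2 Mt1 probe sets, the one used for the gene, stood at 12.15, 12.10, 11.62 and 11.59 in wild type 1 to 4. It stood at 11.29, 11.61 and 11.53 in β-catenin active 1 to 3 and at 12.25, 12.66 and 12.60 in FoxO1 deleted 1 to 3. Every FoxO1 array lay above every other array, and wild type 4 lay within the range of the β-catenin active arrays, with wild type 3 just above it. Mt1 was 2.04-fold lower with active β-catenin (11.48 ± 0.17, SD, n = 3) than with FoxO1 deleted (12.50 ± 0.22, n = 3), a log2 difference of -1.03 ± 0.17 SE (limma adjusted p = 0.0202). Against wild type (11.87 ± 0.30, n = 4) the difference was -0.39 ± 0.16 with active β-catenin (limma adjusted p = 0.354) and 0.64 ± 0.16 with FoxO1 deleted (limma adjusted p = 0.379). Neither passed.

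The Mt1 call between the genotypes was lost without any 1 array of β-catenin active 1, 2 or 3 or of FoxO1 deleted 2 or 3, with limma adjusted p from 0.0530 to 0.0851 and differences from -1.09 to -0.93. Xist signal was high in 2 of 4 wild-type, 0 of 3 β-catenin active and 2 of 3 FoxO1 arrays. With a term for it the difference between the genotypes was -1.17 (limma adjusted p = 0.164). In the 6 arrays with low Xist signal alone, which hold 1 FoxO1 array that is assumed to vary like the others, the difference was -0.77. Against wild type 1 and 2 it was -0.65 with active β-catenin. These were the wild-type arrays with the highest Mt1, and they may not be independent units.

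Mt2 was read by 1 probe set. It stood at 11.54, 11.75, 11.00 and 11.02 in wild type 1 to 4, at 9.34, 10.50 and 10.28 in β-catenin active 1 to 3 and at 11.11, 11.50 and 11.31 in FoxO1 deleted 1 to 3. All β-catenin active arrays lay below all others, while wild type and FoxO1 deleted overlapped. The mean was 10.04 ± 0.62 with active β-catenin (n = 3), 11.33 ± 0.38 in wild type (n = 4) and 11.31 ± 0.20 with FoxO1 deleted (n = 3). The log2 difference was -1.29 ± 0.26 from wild type (limma adjusted p = 0.0552) and -1.27 ± 0.28 from FoxO1 deleted (limma adjusted p = 0.108), so neither passed. Without β-catenin active 1, the lowest array, the difference from wild type was -0.94. Without β-catenin active 2 it was -1.52 and passed (limma adjusted p = 0.0473). FoxO1 deleted and wild type differed by -0.02 ± 0.26 (limma adjusted p = 0.990).

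The dimmer Mt1 probe set showed another pattern. It stood at 5.83, 6.16, 5.66 and 2.27 in wild type 1 to 4, all under the table's median. It stood at 8.44, 8.05 and 8.78 in β-catenin active 1 to 3 and at 8.74, 9.35 and 8.24 in FoxO1 deleted 1 to 3. Every mutant array lay above every wild-type array. The probe set passed the filter only through the 6 mutant arrays, so no difference from wild type is given for it. Between the mutant genotypes it overlapped and differed by -0.35 ± 0.81 (limma adjusted p = 0.973 over probe sets). That SE draws on the spread of all 10 arrays, wild type 4 among them. The Mt1 call between the genotypes thus rests on the brighter probe set. The dimmer one stays among the 61 kept probe sets, in their counts and in the mean of a gene's probe sets below.

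**Figure D2:**
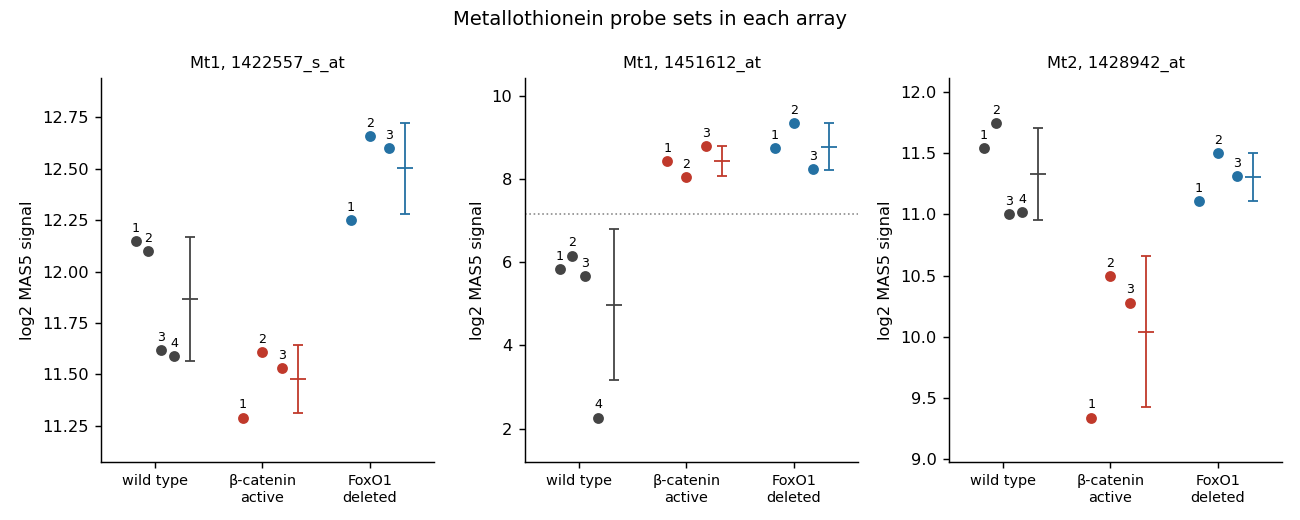
Log2 MAS5 signal of the 3 metallothionein probe sets in each array; points are arrays labelled by replicate number, dashes and bars the mean ± SD of each genotype, and the dotted line the table's median of 7.15. Mt2 is lowest in the 3 β-catenin active arrays, and the dimmer Mt1 probe set, in the middle panel, is under the median only in wild type.

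Among sestrins, stress-induced proteins that restrain mTORC1 and are known FoxO and p53 targets, Sesn1 had a positive difference with active β-catenin on each of its 4 kept probe sets, and 1 of them passed. The Sesn1 probe set with a wild-type mean of 10.73 ± 0.04 (SD, n = 4) stood at 10.78, 10.71, 10.75 and 10.68 in wild type 1 to 4 and at 11.54, 11.31 and 11.37 in β-catenin active 1 to 3. It stood at 10.81, 10.66 and 10.61 in FoxO1 deleted 1 to 3. All β-catenin active arrays lay above all others, while FoxO1 deleted and wild type overlapped. The rise was 1.60-fold from wild type, 0.68 ± 0.08 on the log2 scale (limma adjusted p = 0.00498 over 20127 probe sets, of which 0.507% passed). From FoxO1 deleted it was 1.64-fold, 0.71 ± 0.09 (limma adjusted p = 0.00543, where 0.442% passed). FoxO1 deleted differed from wild type by -0.04 ± 0.08 (limma adjusted p = 0.939). Endothelial markers were also highest with active β-catenin: Pecam1, Cdh5, Kdr and Tek, all 4 of the list, summed on the linear scale to 4460 to 4836 with active β-catenin, 3513 to 3937 in wild type and 3835 to 4057 with FoxO1 deleted. Of the 4, 3 were higher without overlap in both comparisons, where 7.27% of all genes were from wild type and 5.39% from FoxO1 deleted. At an unadjusted p under 0.05 in limma there were 3 from wild type and 2 from FoxO1 deleted, against 12.1% and 8.03% of all genes. With adjustment 0 of the 4 passed, and 0 were at 0. The part of these markers in the Sesn1 rise was not tested.

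The Sesn1 probe set kept both calls whichever array was left out, with limma adjusted p at most 0.0271. When wild type 1 and 2, and 3 and 4, were averaged, the rise from wild type did not pass (limma adjusted p = 0.130), nor did it with a term for Xist signal (0.62, limma adjusted p = 0.0745). The rise from FoxO1 deleted did not pass with that term (0.65, limma adjusted p = 0.188) or in the arrays with low Xist signal alone (0.60, limma adjusted p = 0.262).

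Of the other Sesn1 probe sets, 2 differed from wild type by 0.43 ± 0.11 (limma adjusted p = 0.142 over probe sets) and 0.69 ± 0.22 (limma adjusted p = 0.210), both without overlap with wild type. The fourth had the highest mean and so stood for the gene. It read 11.55, 11.74, 11.17 and 11.47 in wild type 1 to 4, 12.27, 11.81 and 11.56 in β-catenin active 1 to 3 and 11.42, 11.51 and 11.18 in FoxO1 deleted 1 to 3. There the β-catenin active arrays overlapped with wild type (0.40 ± 0.17, limma adjusted p = 0.377) but not with FoxO1 deleted (0.51 ± 0.18, limma adjusted p = 0.452).

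The first of 2 listed Sesn1 promoter windows (GRCm38.p6) is shown because it was the only one of 37 windows, from 30 of the 36 genes, with a match to the FoxO core GTAAACA on either strand, in capitals.
Sesn1 (chr10:41810324-41810623, + strand): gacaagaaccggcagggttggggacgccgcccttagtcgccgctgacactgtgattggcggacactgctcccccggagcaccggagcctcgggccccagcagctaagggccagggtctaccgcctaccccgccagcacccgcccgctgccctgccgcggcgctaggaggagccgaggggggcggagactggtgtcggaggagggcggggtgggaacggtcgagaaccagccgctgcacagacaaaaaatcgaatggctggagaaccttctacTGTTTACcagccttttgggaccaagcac
This core was found in 3.65% of all windows. The TCF/LEF core (CTTTGAT or CTTTGAA) was in 3 of the 37 windows (8.11%, against 8.65% of all), those of Prdx5, Txnrd1 and Txnrd3. The antioxidant response element core TGACNNNGC was in 8 (21.6%, against 12.4%), those of Gclm, Mt2, Nfe2l2, Prdx1, Sesn2, Sod1, Srxn1 and Txnrd1. The metal response element core was in 11 windows (29.7%). Among these windows 1 pair of matches to different motifs overlapped. Sod3, Prdx6, Msra, Gclc, Gsr and Hmox1 were not in the promoter table.

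Sesn2 differed from wild type by -0.35 ± 0.25 when β-catenin was active and by -0.09 ± 0.25 when FoxO1 was deleted, and Sesn3 by -0.12 ± 0.10 and 0.02 ± 0.10. None of these passed, and the arrays overlapped in each.

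**Figure D3:**
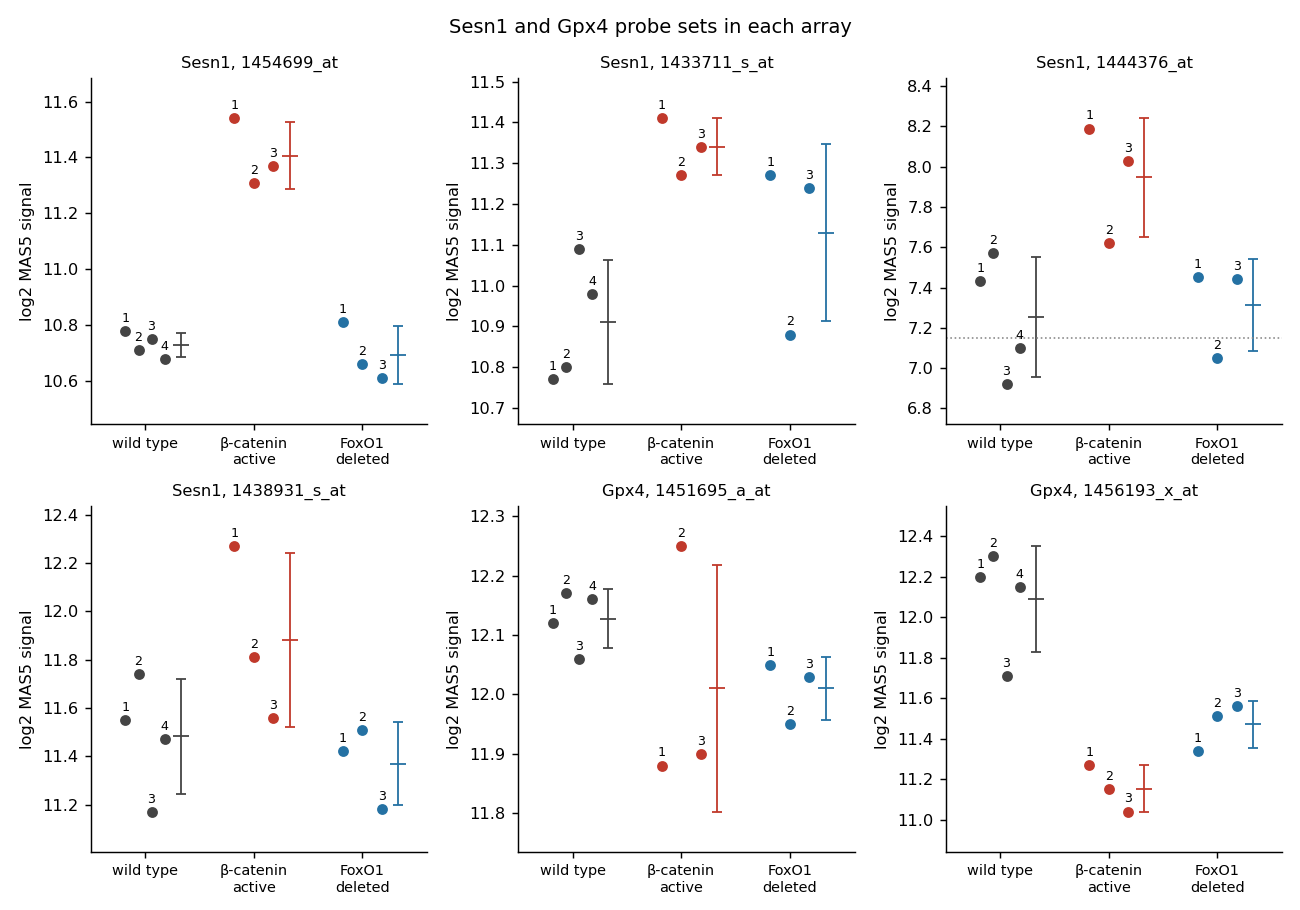
Log2 MAS5 signal of the 4 kept Sesn1 and 2 Gpx4 probe sets in each array; points are arrays labelled by replicate number, dashes and bars the mean ± SD of each genotype, and the dotted line, where in range, the table's median. The Sesn1 probe set at the upper left separates the β-catenin active arrays from all others, and the Gpx4 probe set at the lower right is below every wild-type array in both mutants.

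Glutathione peroxidases reduce peroxides with glutathione. Gpx1, the main cytosolic form, stood at 13.36, 13.39, 13.20 and 13.08 in wild type 1 to 4. It stood at 12.92, 13.01 and 13.01 in β-catenin active 1 to 3 and at 12.88, 12.93 and 12.78 in FoxO1 deleted 1 to 3. All 6 mutant arrays lay below all wild-type arrays. The difference was -0.28 ± 0.09 with active β-catenin (limma adjusted p = 0.181) and -0.39 ± 0.09 with FoxO1 deleted (limma adjusted p = 0.343), the smallest unadjusted p of the set in that comparison (7.18e-04). Neither passed.

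Prdx2, a peroxiredoxin abundant in red cells, had the same order. It stood at 12.88, 12.97, 12.99 and 13.00 in wild type 1 to 4, at 12.55, 12.75 and 12.60 in β-catenin active 1 to 3 and at 12.74, 12.74 and 12.41 in FoxO1 deleted 1 to 3. The difference was -0.33 ± 0.09 in each genotype (limma adjusted p = 0.157 and 0.435). Its other probe set differed by -0.17 and -0.26.

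Erythroid marker signal was also lower in most mutant arrays. The 4 tested of 10, Alas2, Klf1, Slc4a1 and Rhag, summed on the linear scale to 1369 to 3842 in wild type. The sum was 583 to 1038 with active β-catenin and 572 to 1822 with FoxO1 deleted, where FoxO1 deleted 2 overlapped with wild type. The 5 tested of 6 neutrophil markers summed to 3188 to 6694 in wild type, 704 to 1252 with active β-catenin and 430.2 to 2917 with FoxO1 deleted. No tested marker of either list was at 0. Gpx1 was lower in wild type 3 and 4 than in 1 and 2, as the erythroid sum and Mt2 were, while Prdx2 was not. Within each genotype the brighter Mt1 probe set ranked the arrays as the erythroid sum did. Mt1 was highest with FoxO1 deleted, though, where the sum overlapped with wild type only in FoxO1 deleted 2. The part of these cells in the Gpx1, Prdx2, Mt1 and Mt2 differences was not tested. In bulk samples fewer cells of a type and less RNA per cell cannot be told apart.

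**Figure D4:**
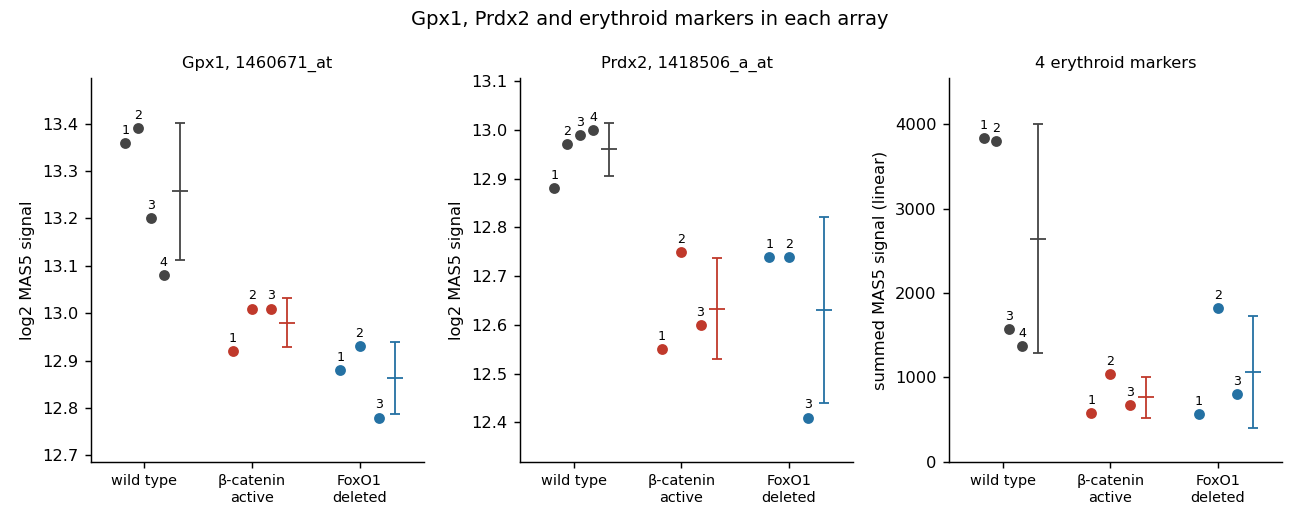
Log2 MAS5 signal of Gpx1 and Prdx2, and the summed linear MAS5 signal of the 4 tested erythroid markers, in each array; points are arrays labelled by replicate number, dashes and bars the mean ± SD of each genotype. Both genes are lower in all 6 mutant arrays than in any wild-type array, and the erythroid sum is highest in wild type 1 and 2.

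Gpx4, which reduces lipid peroxides in membranes, was read differently by its 2 probe sets. The probe set with the suffix x_at stood at 12.20, 12.30, 11.71 and 12.15 in wild type 1 to 4, at 11.27, 11.15 and 11.04 in β-catenin active 1 to 3 and at 11.34, 11.51 and 11.56 in FoxO1 deleted 1 to 3. It fell by 0.94 ± 0.13 with active β-catenin, to 1.91-fold lower (limma adjusted p = 0.00881 over probe sets). With FoxO1 deleted the difference was -0.62 ± 0.13 (limma adjusted p = 0.310), again with no overlap with wild type. The other probe set, which stood for the gene, differed by -0.12 ± 0.09 in each genotype (limma adjusted p = 0.680 and 0.771), without overlap only for FoxO1 deleted. The fall did not pass without β-catenin active 3 (limma adjusted p = 0.0538), with similar wild-type arrays averaged (0.0574) or with a term for Xist signal (0.0698). The suffix x_at marks probes that can also bind other transcripts.

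Gpx8, a peroxidase of the endoplasmic reticulum, stood at 12.45, 12.64, 12.60 and 12.60 in wild type 1 to 4, at 12.36, 12.48 and 12.18 in β-catenin active 1 to 3 and at 12.50, 12.43 and 12.24 in FoxO1 deleted 1 to 3. The arrays overlapped, with differences of -0.23 ± 0.09 and -0.18 ± 0.09. Gpx7, its close relative, stood at 12.20, 12.32, 12.29 and 12.36 in wild type 1 to 4, at 12.03, 12.22 and 12.17 in β-catenin active 1 to 3 and at 12.39, 12.22 and 12.31 in FoxO1 deleted 1 to 3. Its difference between the genotypes was -0.17 ± 0.08 (limma adjusted p = 0.660). Gpx3, the secreted form, differed by 0.14 ± 0.22 and -0.02 ± 0.22. None of these passed.

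Sod1, Sod2 and Cat, the core enzymes against superoxide and hydrogen peroxide, showed small differences on the probe sets used for them. Sod1 of the cytosol stood at 12.43 ± 0.09 in wild type (n = 4), 12.49 ± 0.18 with active β-catenin (n = 3) and 12.34 ± 0.20 with FoxO1 deleted (n = 3). Sod2 of mitochondria stood at 11.36 ± 0.05, 11.37 ± 0.17 and 11.27 ± 0.09 in the same order. Another Sod1 probe set was lower without overlap with FoxO1 deleted than in wild type (-0.16 ± 0.07, limma adjusted p = 0.635 over probe sets). A further Sod1 probe set was lower without overlap with active β-catenin than with FoxO1 deleted (-0.23 ± 0.11, limma adjusted p = 0.698). Deletion of FoxO1 went with a Sod2 difference of -0.08 ± 0.09 (limma adjusted p = 0.840) and a Cat difference of -0.18 ± 0.18 (limma adjusted p = 0.831). A dimmer Sod2 probe set (wild type 7.95 to 8.24) was lower without overlap in both genotypes, by -0.54 ± 0.16 with active β-catenin (limma adjusted p = 0.196 over probe sets) and -0.44 ± 0.16 with FoxO1 deleted (limma adjusted p = 0.572). Cat spread most with FoxO1 deleted, at 12.18, 12.13 and 11.37, against 11.84 to 12.25 in wild type, and its second probe set differed by 0.03.

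Srxn1, sulfiredoxin, which repairs over-oxidised peroxiredoxins, had its highest signals with FoxO1 deleted. It stood at 8.49, 8.35, 8.43 and 8.70 in wild type 1 to 4, at 8.40, 8.45 and 8.51 in β-catenin active 1 to 3 and at 8.86, 8.76 and 8.83 in FoxO1 deleted 1 to 3. The FoxO1 arrays lay above all others, by 0.32 ± 0.11 from wild type (limma adjusted p = 0.560) and 0.36 ± 0.12 from β-catenin active (limma adjusted p = 0.413). Neither passed. On the other kept Srxn1 probe set the FoxO1 arrays overlapped with both other groups. There FoxO1 deleted minus wild type was 0.36 ± 0.23, and β-catenin active minus FoxO1 deleted was -0.15 ± 0.25. Prdx4, the peroxiredoxin of the endoplasmic reticulum, stood at 12.61, 12.62, 12.80 and 12.63 in wild type 1 to 4, at 12.14, 12.45 and 12.53 in β-catenin active 1 to 3 and at 12.59, 12.49 and 12.56 in FoxO1 deleted 1 to 3. Every mutant array lay below wild type, by -0.29 ± 0.10 with active β-catenin (limma adjusted p = 0.214) and -0.12 ± 0.10 with FoxO1 deleted (limma adjusted p = 0.779). Its other 2 probe sets overlapped. Prdx3 of mitochondria differed by 0.03 ± 0.10 and -0.06 ± 0.10.

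The thioredoxin system keeps protein thiols reduced. On the probe sets used for its 7 members, 0 had an unadjusted p under 0.05 in limma against wild type in either genotype, and their differences lay between -0.22 and 0.17 with active β-catenin and between -0.20 and 0.24 with FoxO1 deleted. Txn1, cytosolic thioredoxin, differed by -0.02 ± 0.09 and -0.09 ± 0.09, and Txn2 of mitochondria by -0.06 ± 0.10 in both. The reductase Txnrd1 differed by -0.16 ± 0.12 in both. Txnrd2 of mitochondria differed by -0.22 ± 0.21 and 0.24 ± 0.21, and it did not overlap between β-catenin active (6.99 to 7.37) and FoxO1 deleted (7.47 to 7.75), near the table's median. Its other kept probe set differed by 0.20 ± 0.21 and 0.19 ± 0.21, and by 0.01 ± 0.22 with overlap between the genotypes. Txnrd3 differed by 0.17 ± 0.14 and 0.05 ± 0.14. Another Txnrd3 probe set was lower in every array with active β-catenin than in every other array, by -0.33 ± 0.15 from wild type (limma adjusted p = 0.433 over probe sets) and -0.41 ± 0.16 from FoxO1 deleted (limma adjusted p = 0.534). Glrx, glutaredoxin, differed by -0.06 ± 0.17 and 0.08 ± 0.17. Msra, which repairs oxidised methionine, stood at 8.74, 8.67, 8.58 and 8.52 in wild type 1 to 4, at 8.59, 8.44 and 8.46 in β-catenin active 1 to 3 and at 8.52, 8.47 and 8.28 in FoxO1 deleted 1 to 3, with overlap in both comparisons.

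Glutathione is made by Gclc and Gclm, the catalytic and modifier subunits of glutamate-cysteine ligase, and Gss, and it is kept reduced by Gsr. On the probe sets used for them, all 4 had a negative difference with active β-catenin, from -0.22 to -0.07. Of these, 0 of 4 passed limma's test (1 at an unadjusted p under 0.05). Second probe sets of Gclc and Gclm had positive differences, given below. Gclc stood at 9.33, 9.24, 9.35 and 9.11 in wild type 1 to 4, at 8.91, 9.12 and 9.08 in β-catenin active 1 to 3 and at 9.25, 9.30 and 9.23 in FoxO1 deleted 1 to 3. Its second probe set differed by 0.01 from wild type with active β-catenin, in place of -0.22. Gss stood at 8.41, 8.21, 8.10 and 8.13 in wild type 1 to 4, at 7.94, 7.91 and 8.20 in β-catenin active 1 to 3 and at 8.43, 8.40 and 8.38 in FoxO1 deleted 1 to 3. On the probe sets used, Gclc and Gss were each lower in every β-catenin active array than in every FoxO1 deleted array. The differences were -0.39 ± 0.14 for Gss (limma adjusted p = 0.464) and -0.22 ± 0.11 for Gclc (limma adjusted p = 0.646). Their second probe sets overlapped there, with differences of -0.23 ± 0.23 for Gss and 0.10 ± 0.15 for Gclc. Gclm differed from wild type by -0.07 ± 0.11 and -0.06 ± 0.11. Its second probe set went the other way, by 0.29 ± 0.17 (limma adjusted p = 0.580 over probe sets) and 0.14 ± 0.17.

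Gsr stood at 10.20, 10.01, 9.86 and 9.99 in wild type 1 to 4, at 9.71, 9.92 and 9.90 in β-catenin active 1 to 3 and at 9.94, 9.92 and 9.53 in FoxO1 deleted 1 to 3, with overlap. Its second probe set was lower without overlap with FoxO1 deleted (-0.60 ± 0.16, limma adjusted p = 0.431 over probe sets) and differed by -0.44 ± 0.16 with active β-catenin (limma adjusted p = 0.293).

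Hmox1, heme oxygenase 1, which breaks down heme and is a classical Nrf2 target, stood at 7.85, 8.29, 8.28 and 8.33 in wild type 1 to 4. It stood at 8.32, 8.56 and 8.24 in β-catenin active 1 to 3 and at 7.92, 8.07 and 7.87 in FoxO1 deleted 1 to 3. The arrays of the mutant genotypes did not overlap (0.42 ± 0.16, limma adjusted p = 0.527), but each overlapped with wild type. Nqo1, a quinone reductase and Nrf2 target, differed by 0.20 ± 0.23 and -0.17 ± 0.23. Nfe2l2 differed by 0.08 ± 0.24 and 0.34 ± 0.24, with FoxO1 deleted 2 at 10.65 and the other FoxO1 arrays at 9.88 and 9.62. Its second probe set went the other way, by -0.10 ± 0.43 and -0.75 ± 0.43, with FoxO1 deleted 2 lowest at 6.72. Keap1 differed by 0.03 ± 0.10 and 0.08 ± 0.10, and its second probe set by -0.40 ± 0.17 (limma adjusted p = 0.408 over probe sets) and -0.01 ± 0.17. That probe set did not overlap between the genotypes (-0.39 ± 0.19, limma adjusted p = 0.672).

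Where genes had several kept probe sets, these often differed in sign. Of 21 such genes, 11 had 1 sign on all kept probe sets with active β-catenin against wild type, and 10 with FoxO1 deleted. Over all 61 kept probe sets 43 were negative with active β-catenin (median -0.09) and 40 with FoxO1 deleted (median -0.06). With active β-catenin 2 of the 61 passed, where 0.507% of all 20127 probe sets did, and 11 did not overlap with wild type, where 13.2% of all did not. With FoxO1 deleted 0 passed in limma, where 0.0149% of all did, and 11 did not overlap, where 9.07% did not. Both counts of 11 include the dimmer Mt1 probe set, which passed the filter only through the mutant arrays. Between the genotypes 2 passed and 14 did not overlap, where 0.442% and 9.60% of all did so.

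Among 79 further genes of the same pathways, 65 were tested and 0 passed limma's test in any of the 3 comparisons. At an unadjusted p under 0.05 there were 11 of them with active β-catenin against wild type, 3 with FoxO1 deleted against wild type and 7 between the genotypes, where 12.1%, 7.83% and 8.03% of all genes had one. Of 15 glutathione transferases, which join glutathione to toxic compounds, 12 had a negative difference in each genotype against wild type, where 51.3% of all genes had a positive one with active β-catenin and the median of all genes was 0 with FoxO1 deleted. The genotypes share the wild-type arrays, and 0 of the 15 passed limma's test (at an unadjusted p under 0.05, 2 when β-catenin was active and 0 when FoxO1 was deleted). Gsta4 differed by -0.47 ± 0.11 with active β-catenin (limma adjusted p = 0.0767) and -0.05 ± 0.11 with FoxO1 deleted, and Mgst3 by -0.32 ± 0.10 and -0.11 ± 0.10. Of 13 other Nrf2 targets and NADPH-forming enzymes, Tkt, transketolase, differed by -0.61 ± 0.13 with active β-catenin (limma adjusted p = 0.0708) and Blvra, biliverdin reductase, by -0.37 ± 0.11 with FoxO1 deleted (limma adjusted p = 0.488).

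Txnip, which binds and inhibits thioredoxin, was higher in every array with active β-catenin than in every other array, by 0.55 ± 0.17 from wild type (limma adjusted p = 0.191) and 0.58 ± 0.18 from FoxO1 deleted (limma adjusted p = 0.336). Txndc5, a disulfide isomerase, differed by -0.20 ± 0.07 from wild type. Among the 7 metal-handling genes tested, Slc30a1, a zinc exporter induced with metallothioneins, differed by -0.34 ± 0.13 with active β-catenin (limma adjusted p = 0.289) and -0.17 ± 0.13 with FoxO1 deleted, and Mt3 by -0.50 ± 0.25 and -0.19 ± 0.25. Of the genes for selenoprotein synthesis, Selenop, the plasma selenium carrier, differed by 0.33 ± 0.13 and 0.21 ± 0.13, and Scly, selenocysteine lyase, by -0.39 ± 0.16 and -0.19 ± 0.16. Of the Nrf2 partners and repressors, Mafk differed by 0.39 ± 0.19 and 0.13 ± 0.19, and Bach1 by -0.08 ± 0.10 and 0.11 ± 0.10.

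The Actb 3' minus 5' log2 signal, a measure of RNA integrity, was 0.60 to 0.77 in wild type, 0.85 to 0.88 with active β-catenin and 0.80 to 0.99 with FoxO1 deleted (exact permutation p = 0.0571 for each against wild type, two-sided, the smallest this design allows). The same measure on Gapdh overlapped, at 0 to 0.22, 0.02 to 0.31 and 0.18 to 0.33. Its part in the small downward median of the defence genes was not tested.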

How the data were processed

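The authors deposited log2 MAS5 signal, and the submitters' processing notes name MAS5 with no version. The sources used here give no later step. Labelling started from 500 ng of RNA, per the labels. Gene names are those of the array's annotation, and probe sets listing several genes were left out.

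Probe sets with at least 3 of 10 arrays above the table's median (7.15) were kept, and the kept probe set with the highest mean stood for a gene. The model was limma 3.58.1 (R 4.3.3), 1 mean per genotype, all 10 arrays together, eBayes with a variance trend, two-sided, with Benjamini-Hochberg adjustment over 11357 genes or, where said, 20127 probe sets, at 0.05. The fit was tested on simulated data. Errors are SE for differences and SD for means. Precision is limited by how few arrays there are.

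Members and lists were chosen with earlier results of these data known. Each gene of the set is named, and the 8 with the smallest p in each comparison get their value in every array. Of each related list the 2 genes with the smallest p are named. Second probe sets, and genes outside these rules, were picked after their values were seen. The alternatives tried were other filters, scalings, probe set rules, variance settings, array weights, blocks, averaged wild-type pairs, a Xist term and leaving out each array. Promoters are from RefSeq (GRCm38.p6).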

Additional observations from a re-analysis of the deposited data

Results flagged for a closer look

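In 5 of the 61 kept probe sets of the defence genes, 1 of the 4 wild-type arrays stood apart from the other three by Dixon's criterion, where about 3.05 are due by chance. Wild type 4 was the lowest for the dimmer Mt1 probe set, at 2.27. Wild type 3 was the highest for Prdx3, at 11.02, and for Prdx4, at 12.80. Wild type 1 was the lowest for Txn1, at 13.15, and for Hmox1, at 7.85.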

How the results depend on the processing

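The count of defence genes that passed with FoxO1 deleted against wild type was 0 in limma under all 24 alternatives. For active β-catenin against wild type it was 0 and became 2 (Gpx4 and Sesn1) with the mean of a gene's kept probe sets and 2 with every kept probe set tested, 1 (Mt2) with array weights, 1 (Mt1) in arrays with low Xist signal, chosen after seeing the data, and 0 to 1 when 1 array was left out. Between the genotypes it was 1 and became 0 with the mean of probe sets, which brings in the dimmer Mt1 probe set, 0 with array weights, 0 with a Xist term, 0 in arrays with low Xist signal, 2 (Mt1 and Sesn1) with every probe set tested, and 0 to 1 when 1 array was left out. With the replicate number as a block it was 0 between the genotypes (Mt1 limma adjusted p = 0.0602), and the Sesn1 and Gpx4 probe sets missed the threshold against wild type (limma adjusted p = 0.0643 and 0.0803), while all genes called with active β-catenin went from 89 to 15. That count was 9 with similar wild-type arrays averaged, 10 with a Xist term, 141 with only the 2 groups compared, 149 with array weights, 175 in arrays with low Xist signal and 31 to 130 with 1 array left out. Whether the numbers pair the samples is not known. Deviations of same-numbered arrays correlated between -0.29 and 0.29, which cannot exclude pairing with so few arrays. Over 96 gene results, 5 values gained and 10 lost a call, and 0 called values changed sign. Other scalings moved the median of all genes by at most 0.04. Values under the table's median are taken here as near background, an assumption that was not tested. This limits the dimmer Mt1 probe set most.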
